A study of Homo sapiens with 6 samples.

Results

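The 10 genes described here encode factors that make the 3′ end of replication-dependent histone mRNAs or act at the histone genes: SLBP, NPAT, CASP8AP2, LSM10, LSM11, ZNF473, CPSF3, SYMPK, CSTF2 and ERI1. They were chosen by symbol, and each matched 1 Ensembl identifier among the 20289 genes of the deposited table. RNA sequencing gave their mRNA levels in RKO cells, an established line from a human colorectal cancer, with a control hairpin (ShControl in the labels, cell type WT; here shControl, n = 3 libraries) or with a short hairpin RNA against TRMT6 (ShTRMT6, cell type TRMT6 knockdown; here shTRMT6, n = 3 libraries). TRMT6 is the non-catalytic subunit of the methyltransferase that makes 1-methyladenosine in tRNAs. The labels give neither the hairpin sequence nor the time of knockdown, and do not say whether the cells of a group were a clone or a pool, or whether the replicates were separate cultures, so the p-values below measure the spread between libraries, which may be technical. The comparison asks which mRNAs differ when TRMT6 is knocked down, and the series title places it beside histone synthesis.

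Replication-dependent histone mRNAs are the mRNAs of animal cells that end in a conserved stem-loop instead of a poly(A) tail. SLBP binds that stem-loop, the U7 snRNP, whose ring carries LSM10 and LSM11, pairs with a purine-rich element downstream of it, and a cleavage complex with CPSF3 as the nuclease cuts in between. NPAT and CASP8AP2 work at the histone locus body, the nuclear site where histone genes are transcribed, and ERI1 is a 3′ exonuclease that trims the stem-loop end and takes part in histone mRNA decay.

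The stem-loop is shown first because it is the sequence on which these factors act. It was searched in the GENCODE release 29 transcripts as a 6-base arm that starts with GG, a 4-base loop that starts with TT, and the reverse complement of the arm. Of 67 replication-dependent histone genes with an annotation, 29 (43.28%) held it in any annotated transcript. A gene whose annotated transcripts stop before the stem-loop, or whose stem-loop departs from this pattern, counts as without it. The share thus describes the annotation under this pattern, and does not show that the other histone genes lack a stem-loop. Where only the longest transcript was searched, 79 of 20104 other genes (0.39%) and 0 of the 10 factors held it. Below, 5 of these sites are printed 5′ to 3′ on the strand of the gene, with the arms and the loop in capitals and flanks in lower case: those of 4 histone genes that rose and of H4C11, 1 of the 2 tested histone genes that fell. They were chosen after their values were seen.
H2BC5: cccaaaGGCTCTTTTAAGAGCCacgca
H2AC6: cccaaaGGCTCTTTTCAGAGCCcccct
H2BC21: tccaaaGGCTCTTTTCAGAGCCaccca
H4C8: accaaaGGCCCTTTTCAGGGCCgccca
H4C11: ataaaaGGCCCTTTTCAGGGCCaccct

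These sites lie at chr6:26158581-26158607 (plus strand), chr6:26124663-26124689 (plus), chr1:149886183-149886209 (minus), chr6:26285126-26285152 (minus) and chr6:27824453-27824479 (plus) in GENCODE release 29 (GRCh38). The arm was GGCTCT in 21 of the 29 genes and GGCCCT in 8, and the loop was TTTC in 22, TTTA in 4 and TTTT in 3. For each gene, the annotated transcript reaching furthest past the site was taken, and its other transcripts were not counted. This longest reach was at least 100 bases in 10 of the 17 tested histone genes with the site. It was also at least 100 bases in 11 of the 12 untested histone genes with the site. The reach was 1729 bases in H2BC21 and 1655 in H4C8, but 39 bases in H2BC5 and 6 in H4C11. How mRNA was enriched for these libraries is not given in the sources used here, and whether the fragments come from transcripts that end at the stem-loop or past it was not tested.

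In short, 2 of the 10 factors rose, CPSF3 and ERI1, both enzymes that cut RNA, and 0 passed the test in the lower direction. With a replicate block (the replicate number as a term in the fit) 2 passed as lower, SYMPK and CSTF2 (limma adjusted p = 0.0242 and 0.0247). All 10 reached the mean of 1 FPKM (fragments scaled to gene length and to the depth of the library) needed for testing. The test was limma on log2(FPKM + 1) over 10592 genes, with a threshold of 0.05 on the p-value after Benjamini-Hochberg adjustment over all of them. Of all genes tested, 19.3% passed as higher, 16.1% as lower and 35.4% in either direction, so 2 of 10 is a share near the background. The groups did not overlap for 3 of the 10, CPSF3, ERI1 and SYMPK, against 48.3% of all genes tested. The median log2 fold change of the 10 was -0.056, against 0.024 over all genes tested.

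**Figure D1:**
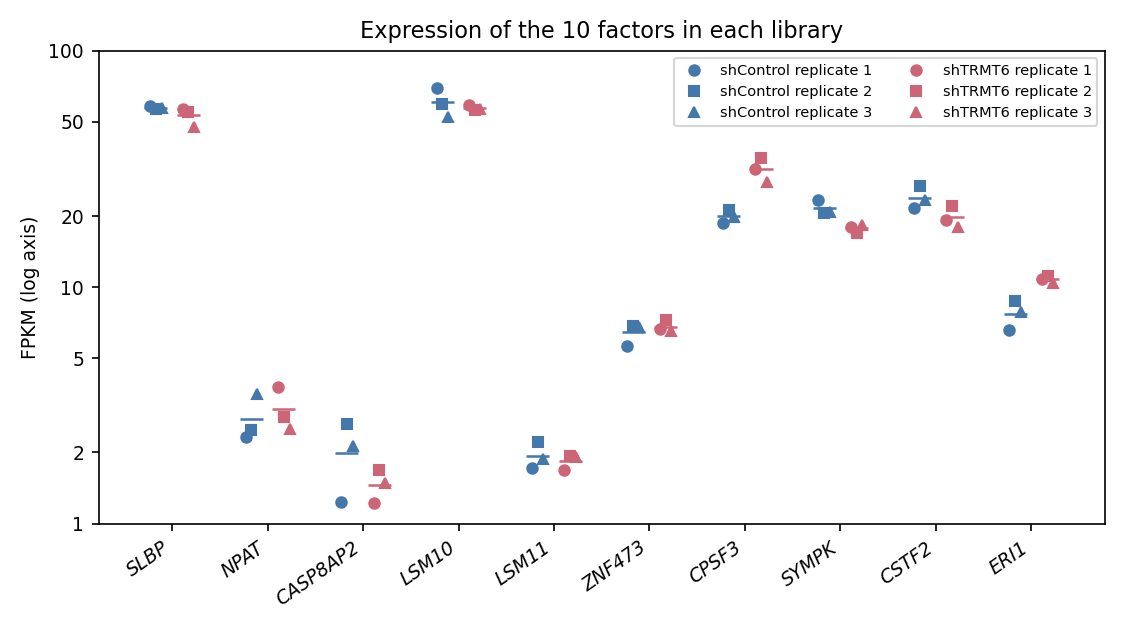
FPKM on a log axis for the 10 factors in each of the 6 libraries; symbols mark the replicate number, colours the group, and short lines the group means. The shTRMT6 points of CPSF3 and ERI1 lie above every shControl point, those of SYMPK lie below, and the other factors overlap.

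As a check of the labels, TRMT6 itself stood at 14.43, 17.96 and 16.85 FPKM with the control hairpin, and at 1.58, 1.73 and 1.09 FPKM with shTRMT6, a mean 11.2-fold lower (log2 fold change -2.82, SE 0.13, limma adjusted p = 4.33e-08). Correlations of log2 values between libraries ran from 0.9893 to 0.9947 for libraries of 1 group and from 0.963 to 0.9818 across the groups. Of 10 colorectal epithelial markers, EPCAM, KRT8, KRT18 and CDX2 averaged at least 1 FPKM, and CDH1, KRT19, KRT20, VIL1 and CDX1 were listed at 0 in all 6 libraries. Of 14 markers of blood, fibroblast and endothelial cells none averaged 1 FPKM. Depth, read from the step sizes of low FPKM values, came to roughly 17.8 to 28.3 M fragments per library.

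SLBP, the stem-loop binding protein (ENSG00000163950; chr4:1692800-1712555, minus strand, in GENCODE release 29), was among the most abundant of the 10. It stood at 58.34, 56.57 and 57.22 FPKM with the control hairpin, and at 56.84, 55.22 and 47.67 FPKM with shTRMT6. The groups overlapped, and the lowest value was that of shTRMT6 replicate 3. The means were 57.4 ± 0.895 and 53.2 ± 4.89 FPKM (SD, n = 3 each). The log2 fold change was -0.11 (SE 0.097, 95% interval -0.32 to 0.099, limma adjusted p = 0.4), so a difference much beyond 0.3 in log2 lies outside the interval.

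Histone mRNA levels differed far more than that of SLBP. Summed over the 69 replication-dependent histone genes of the table, they came to 245.8, 216.7 and 196.9 FPKM in the control libraries, against 736.2, 751.9 and 681.8 FPKM after knockdown. Per FPKM of SLBP this was 4.21, 3.83 and 3.44 FPKM of histone mRNA in shControl and 12.9, 13.6 and 14.3 in shTRMT6. The groups did not overlap in this ratio, and its mean was 3.56-fold higher in shTRMT6 (exact two-sided permutation p = 0.1, the smallest that 3 libraries against 3 allow; 0.133 adjusted over the 8 sums and ratios compared in this way). As SLBP varied little, the separation in the ratio follows from the histone sums and adds nothing to them. The sums rest largely on HIST2H2AA4, H1-2 and H2BC12, which averaged 179.7, 161.5 and 133.3 FPKM in shTRMT6, against 44.7, 73.1 and 20.5 in shControl. H3C14 and H3C15 had the same value in each library and were counted as separate genes. HIST2H2AA3 and HIST2H2AA4, which have the same stem-loop site, were also counted separately, as were H4C14 and H4C15, which share theirs. HIST2H2AA3 stood at 11.47, 9.25 and 0 FPKM in shControl and at 23.15, 53.07 and 59.16 FPKM in shTRMT6. How fragments were divided within these pairs was not tested. Of the 27 histone genes tested, 23 rose and 2 fell, and their log2 fold changes had a median of 1.28. Those that fell were H4C11 and H2AC20; neither fell past the threshold after GC correction, without shControl replicate 1 or without shTRMT6 replicate 3. With a mean of at least 5 FPKM required, 9 rose and 1 fell. Some genes that rose reached the mean of 1 FPKM only through shTRMT6, such as H2BC8 (0.483 FPKM in shControl, 3.6 in shTRMT6). H2BC5 passed the filter of 5 FPKM in the same way (2.21 and 22.03 FPKM). These filters let in genes through their rise, which the counts and the median do not allow for. The sums above used no filter.

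NPAT is the coactivator that cyclin E and CDK2 phosphorylate to switch on histone gene transcription at the start of S phase (ENSG00000149308; chr11:108157215-108222642, minus strand). It stood at 2.33, 2.48 and 3.52 FPKM with the control hairpin, and at 3.79, 2.82 and 2.52 FPKM with shTRMT6. Within each group 1 library stood above the others, and the ranges overlapped. The log2 fold change was 0.099 (SE 0.16, 95% interval -0.24 to 0.43, limma adjusted p = 0.65).

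CASP8AP2, also called FLASH, binds LSM11 and bridges the U7 snRNP to the cleavage complex (ENSG00000118412; chr6:89829894-89874436, plus strand). It stood at 1.24, 2.63 and 2.12 FPKM with the control hairpin, and at 1.22, 1.68 and 1.48 FPKM with shTRMT6. The overlap of the groups rested on shControl replicate 1, whose value lay within the shTRMT6 range, while the other controls lay above it. With all libraries the log2 fold change was -0.26 (SE 0.17, 95% interval -0.63 to 0.11, limma adjusted p = 0.25). Without shControl replicate 1 it was -0.46 and passed (adjusted p = 0.0302), and after a correction for GC content it was -0.48 and passed as well (adjusted p = 0.013, or 0.00703 with a replicate block). Without shControl replicate 2 it was -0.11 (adjusted p = 0.656), and over the 16 alternatives with a value the adjusted p ran from 0.00703 to 0.656.

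Of the U7-specific ring proteins, LSM10 was abundant and LSM11 scarce. LSM10 (ENSG00000181817; chr1:36391238-36397892, minus strand), which takes the place of SNRPD1 in the U7 ring, stood at 69.71, 59.6 and 52.57 FPKM with the control hairpin, and at 58.91, 56.27 and 56.78 FPKM with shTRMT6. The shTRMT6 values fell inside the control range (log2 fold change -0.071, SE 0.11, 95% interval -0.30 to 0.16, limma adjusted p = 0.643). LSM11 (ENSG00000155858; chr5:157743695-157760709, plus strand), which takes the place of SNRPD2 and has an N-terminal extension that binds CASP8AP2, stood at 1.72, 2.22 and 1.87 FPKM with the control hairpin, and at 1.69, 1.94 and 1.91 FPKM with shTRMT6. These groups overlapped too (log2 fold change -0.042, SE 0.13, 95% interval -0.32 to 0.23, adjusted p = 0.824).

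The ring proteins that LSM10 and LSM11 replace passed the test narrowly. SNRPD1 averaged 36.7 ± 3.88 and 45.6 ± 3.54 FPKM (SD, n = 3 each; log2 fold change 0.31, limma adjusted p = 0.0375). SNRPD2 averaged 224.2 ± 14.4 and 265.1 ± 7.29 FPKM (0.24, adjusted p = 0.0475). These calls ended in 9 and 10 of 17 alternative analyses, with adjusted p up to 0.3 and 0.179. The ratio of SNRPD1 to LSM10 was 0.504 to 0.69 in shControl and 0.734 to 0.83 in shTRMT6, with no overlap, whereas that of SNRPD2 to LSM11 was 102.2 to 137.9 and 133.7 to 161.7, with overlap (exact permutation p = 0.1 and 0.3).

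ZNF473, the zinc finger protein that associates with LSM11 and with the SLBP-bound stem-loop (ENSG00000142528; chr19:50025714-50053414, plus strand), stood at 5.64, 6.88 and 6.78 FPKM with the control hairpin, and at 6.66, 7.27 and 6.52 FPKM with shTRMT6. The groups overlapped, with shControl replicate 1 the lowest of the 6. The log2 fold change was 0.076 (SE 0.12, 95% interval -0.18 to 0.33, limma adjusted p = 0.646).

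CPSF3 is the endonuclease that cuts both histone pre-mRNA and the precursors of polyadenylated mRNAs (ENSG00000119203; chr2:9423568-9473101, plus strand). It stood at 18.77, 21.23 and 19.89 FPKM with the control hairpin, and at 31.7, 35.3 and 27.87 FPKM with shTRMT6. All shTRMT6 values were above all controls, and the difference held in each pair of libraries with the same replicate number, with log2 differences of 0.73, 0.71 and 0.47. The mean rose from 19.96 ± 1.23 to 31.6 ± 3.72 FPKM (SD, n = 3 each; 1.58-fold, log2 fold change 0.63, SE 0.11, 95% interval 0.40 to 0.87, limma adjusted p = 0.000941). Over 17 alternative analyses the log2 fold change was 0.50 to 0.72, and the adjusted p stayed at or under 0.0101.

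SYMPK, symplekin, is the scaffold that holds the cleavage complex together (ENSG00000125755; chr19:45815410-45863290, minus strand). It stood at 23.42, 20.54 and 20.74 FPKM with the control hairpin, and at 17.9, 16.91 and 18.41 FPKM with shTRMT6. Each shTRMT6 library was below every control, but the difference missed the threshold (1.22-fold lower by the means, log2 fold change -0.27, SE 0.10, 95% interval -0.49 to -0.048, limma adjusted p = 0.056). With a replicate block it passed (adjusted p = 0.0242). After the correction for GC content the log2 fold change was -0.11, with an adjusted p of 0.266.

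CSTF2, the RNA-binding subunit CstF64 of the cleavage stimulation factor, joins the histone complex without the rest of that factor (ENSG00000101811; chrX:100820359-100840932, plus strand). It stood at 21.59, 26.7 and 23.43 FPKM with the control hairpin, and at 19.18, 22.15 and 18.03 FPKM with shTRMT6. The groups overlapped in shControl replicate 1 and shTRMT6 replicate 2, while each pair of libraries with the same number showed a lower value in shTRMT6. Its log2 fold change came to -0.26 (SE 0.11, 95% interval -0.51 to -0.015, limma adjusted p = 0.091), and it passed with a replicate block (adjusted p = 0.0247) and without shControl replicate 1 (-0.33, adjusted p = 0.0423). After GC correction it was -0.15 (adjusted p = 0.311), and without shControl replicate 2 it was -0.18 (adjusted p = 0.303).

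CSTF2 has a paralog, CSTF2T, encoded by an intronless copy of the gene. CSTF2T stood at 5.83, 7.31 and 7.2 FPKM with the control hairpin, and at 8.68, 8.44 and 7.72 FPKM with shTRMT6, with no overlap (log2 fold change 0.26, SE 0.12, limma adjusted p = 0.105). The ratio of CSTF2T to CSTF2 was 0.27, 0.274 and 0.307 in shControl and 0.453, 0.381 and 0.428 in shTRMT6. The ratio was thus higher in every shTRMT6 library, with a mean of 0.284 ± 0.0205 against 0.421 ± 0.0364 (SD, n = 3 each; exact permutation p = 0.1, the smallest possible). The longest annotated transcripts of CSTF2 and CSTF2T shared no 75-base window with each other or with other genes. This was also so for the other factors, except for 3 of 6510 windows in LSM11. Windows were compared in the sense of each transcript only. Overlaps with genes on the opposite strand, such as those of NPAT with ATM and ZNF473 with VRK3, were therefore not searched here.

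ERI1 (ENSG00000104626) was the other factor that rose. It stood at 6.62, 8.7 and 7.82 FPKM with the control hairpin, and at 10.8, 11.15 and 10.45 FPKM with shTRMT6. All shTRMT6 libraries were above all controls and lay closer together than the controls did. The mean rose from 7.71 ± 1.04 to 10.8 ± 0.35 FPKM (SD, n = 3 each; 1.40-fold, log2 fold change 0.44, SE 0.12, 95% interval 0.19 to 0.70, limma adjusted p = 0.0107). The call held in all 17 alternative analyses, with adjusted p from 0.00156 to 0.042, and the GC correction lowered the log2 fold change to 0.24.

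**Figure D2:**
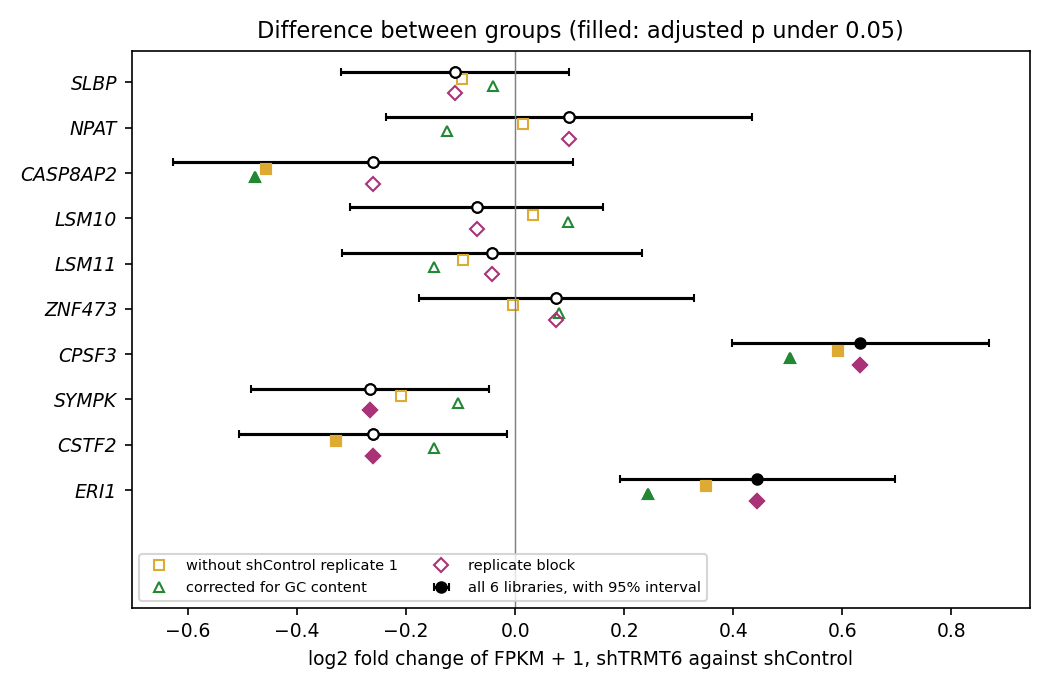
Log2 fold change of FPKM + 1 (shTRMT6 against shControl) for each factor, with its 95% interval over all 6 libraries (circles), and the estimates without shControl replicate 1 (squares), after GC correction (triangles) and with a replicate block (diamonds); filled symbols have an adjusted p under 0.05. CPSF3 and ERI1 are filled in all 4 analyses, whereas CASP8AP2, SYMPK and CSTF2 are filled in 1 or 2.

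The order of levels, which FPKM allows because it is per length, was as follows. In shControl LSM10 (mean 60.6 FPKM) and SLBP (57.4) led, with overlapping ranges. CSTF2 (23.9), SYMPK (21.6) and CPSF3 (19.96) followed; SYMPK overlapped both of the others, and CSTF2 lay above CPSF3. ERI1 (7.71) and ZNF473 (6.43) overlapped as well, and at the bottom CASP8AP2 (1.997) overlapped both NPAT (2.78) and LSM11 (1.94), whose own ranges were apart. In shTRMT6 CPSF3 (31.6 FPKM) stood apart above CSTF2 (19.8) and SYMPK (17.7), and ERI1 (10.8) stood apart from ZNF473 (6.82). At the bottom of the shTRMT6 order NPAT (3.04) stood apart from LSM11 (1.85) and CASP8AP2 (1.46). The lowest LSM11 value there was 1.69 FPKM and the highest CASP8AP2 value 1.68 FPKM. That margin is smaller than the counting error given at the end of this paragraph, so the order of LSM11 and CASP8AP2 is not settled. The ratio of CPSF3 to SYMPK was 0.802, 1.03 and 0.959 in shControl and 1.77, 2.09 and 1.51 in shTRMT6. Its lack of overlap (exact permutation p = 0.1) follows from CPSF3 lying above and SYMPK below every control, and adds nothing to those values. The scarcest values rested on an estimated 151 fragments at the least (CASP8AP2), a counting error of about 8%. Both figures rest on the rough estimate of depth.

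The GC content of the factors' transcripts ran from 37.4% in NPAT to 57.65% in LSM10, and both the fold changes and the libraries varied with GC content. The correlation of the log2 fold change with GC content was -0.39 over 10573 tested genes and -0.45 over the 10 factors. In shControl replicate 1, relative to the mean of the other controls, the log2 values of the GC-rich LSM10 and SYMPK were higher by 0.31 and 0.17, and those of the GC-poor CASP8AP2, ERI1 and NPAT were at -0.59, -0.28 and -0.25. The correlation of this deviation with GC content was 0.83 over the 10 factors and 0.68 over 10573 tested genes, a description within 1 library, in which genes are not independent. In shTRMT6 replicate 1, relative to the other shTRMT6 libraries, it was -0.051 and 0.098. For the other 4 libraries, each against the rest of its group, the correlation over tested genes was -0.579 (shControl replicate 2), -0.336 (shControl replicate 3), -0.475 (shTRMT6 replicate 2) and 0.37 (shTRMT6 replicate 3); the 3 deviations of a group share their libraries. CPSF3 (43.5% GC) and ERI1 (39.7%), which rose, are on the GC-poor side; without shControl replicate 1 both rose still, by 0.59 and 0.35 in log2, and after GC correction by 0.50 and 0.24.

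**Figure D3:**
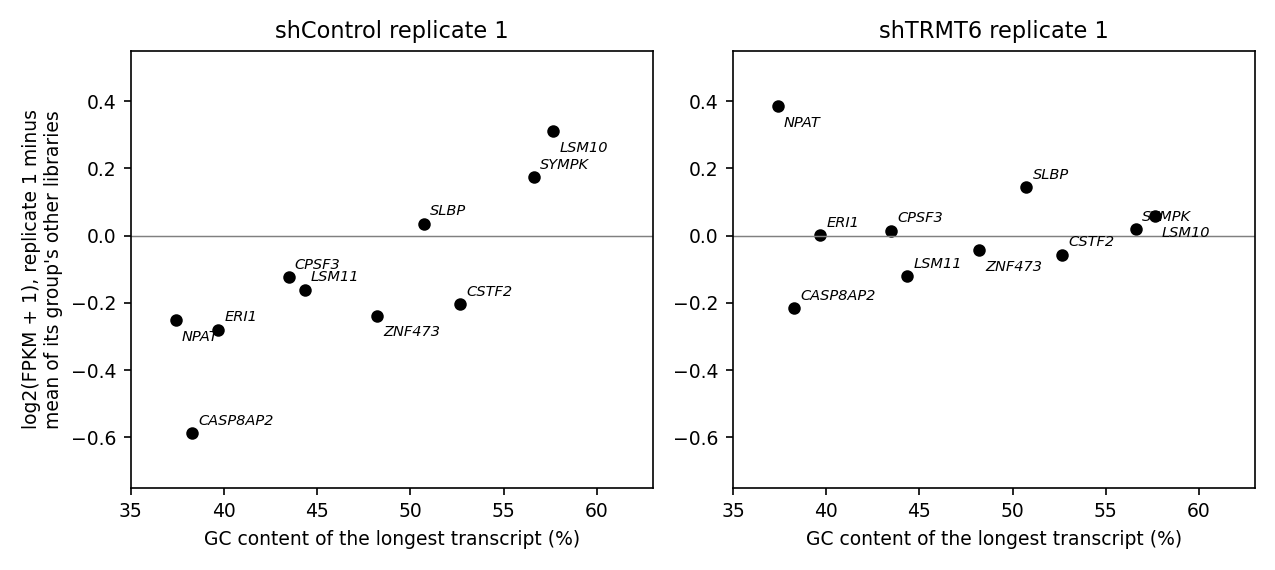
Difference in log2(FPKM + 1) between replicate 1 and the mean of the other libraries of its group, against the GC content (%) of each factor's longest annotated transcript, for shControl (left) and shTRMT6 (right). In shControl replicate 1 the values climb with GC content from -0.59 in CASP8AP2 to 0.31 in LSM10; in shTRMT6 replicate 1 they do not.

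The promoter of CPSF3 is shown because this gene changed while the gene next to it, on the opposite strand, did not pass the test. The annotated starts of CPSF3 and ITGB1BP1, which encodes a binding protein of integrin beta tails, are 21 bases apart in GENCODE release 29. ITGB1BP1 stood at 42.63, 46.37 and 46.23 FPKM with the control hairpin, and at 44.37, 44.36 and 41.21 FPKM with shTRMT6 (log2 fold change -0.056, SE 0.093, 95% interval -0.26 to 0.14, limma adjusted p = 0.669; -0.20 and adjusted p = 0.0414 after GC correction). The ratio of CPSF3 to ITGB1BP1 was 0.43 to 0.458 in shControl and 0.676 to 0.796 in shTRMT6, without overlap (exact permutation p = 0.1, the smallest possible). As ITGB1BP1 varied little, this separation follows from the CPSF3 values and adds nothing to them. The CPSF3 promoter window from RefSeq (GRCh38.p14, chr2:9423404-9423703, plus strand, most of it before the RefSeq start) is printed with a match to TTTGGCGC, a form of the E2F site, in capitals.
CPSF3: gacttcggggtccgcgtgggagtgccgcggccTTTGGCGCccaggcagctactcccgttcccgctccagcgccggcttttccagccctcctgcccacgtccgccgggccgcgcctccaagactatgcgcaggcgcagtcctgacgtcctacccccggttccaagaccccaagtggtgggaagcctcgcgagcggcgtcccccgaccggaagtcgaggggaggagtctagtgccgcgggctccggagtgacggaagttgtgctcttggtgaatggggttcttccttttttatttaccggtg

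The same 8 letters, searched on both strands, occurred in 3 of the 8 factors with a RefSeq promoter (CPSF3, CASP8AP2 and CSTF2), in 229 of all 35116 promoters (0.65%) and in 131 of the 12647 promoters of tested genes (1.04%). The sites of CASP8AP2 (chr6:89829716-89829753, plus strand) and CSTF2 (chrX:100820370-100820407, plus strand) are printed with 15 bases on either side. They begin 149 and 6 bases before the RefSeq start, and that of CPSF3 begins 218 bases before it. The RefSeq start lies 86 bases after the GENCODE gene start in CPSF3 and 32 bases after it in CSTF2, so that the CSTF2 match lies 26 bases past the GENCODE start. The CPSF3 match begins at -132 bases from the GENCODE start of CPSF3. The start of ITGB1BP1, on the opposite strand, is only 21 bases from that start, so the match falls within the annotated ITGB1BP1 gene.
CASP8AP2: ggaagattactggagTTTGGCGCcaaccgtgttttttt
CSTF2: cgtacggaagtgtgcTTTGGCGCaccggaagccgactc

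The 3 factors with this match did not move alike: CPSF3 rose, and CASP8AP2 and CSTF2 had negative fold changes that did not pass with all libraries. E2F forms TTTCCCGC and TTTGGCGG were in none of the 8 promoters (1.63% and 0.65% of all). CCAAT, the NF-Y site, was in LSM10, CASP8AP2 and NPAT (34.61% of all promoters), and TTTGAA, the core of the CHR element of cell cycle genes, in LSM11 and CSTF2 (15.16%). These are matches of letters and not measured binding sites. ERI1 and ZNF473 were not among the promoters used here.

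Other factors also share start regions with a neighbour on the opposite strand. The starts of NPAT and ATM, the DNA damage kinase, are 158 bases apart. ATM stood at 1.35, 2.71 and 1.78 FPKM with the control hairpin, and at 2.4, 2.0 and 1.69 FPKM with shTRMT6, and like NPAT it was not called (log2 fold change 0.060, 95% interval -0.30 to 0.42, limma adjusted p = 0.81). The starts of ZNF473 and the kinase gene VRK3 are 232 bases apart, and VRK3 did not pass either (-0.13, adjusted p = 0.371). Exons overlapped between NPAT and ATM by 1.9% and between ZNF473 and VRK3 by 3.23% of the factor's exon bases; strand was not stated for these libraries, so fragments from those bases cannot be assigned to 1 of the 2 genes.

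Among 16 other genes of the cleavage and polyadenylation machinery, which shares CPSF3, SYMPK and CSTF2 with the histone complex, 4 rose and 2 fell, and the median of their log2 fold changes was 0.078. The lists in these paragraphs were chosen with earlier results of these data known, and no set test was run on them. Of this list 25.0% passed as higher and 12.5% as lower, against 19.3% and 16.1% of all genes tested. In the lists below, except the S phase genes, 13.3% to 28.6% passed as higher and 0% to 25.0% as lower. Their counts are to be read beside the shares of all genes tested. CSTF3, the CstF77 subunit, rose from 11.7 ± 1.9 to 17.3 ± 0.885 FPKM (SD, n = 3 each; 1.48-fold, log2 fold change 0.54, SE 0.12, limma adjusted p = 0.00471). NUDT21, the CFIm25 subunit that steers the choice of poly(A) site, was 1.58 times lower, at 29.7 ± 2.9 against 47.1 ± 3.18 FPKM (log2 fold change -0.65, SE 0.10, adjusted p = 0.000625). Both calls held in all 17 alternative analyses.

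CPSF2, the catalytically inactive partner of CPSF3 in the same heterodimer, and the other genes of this paragraph were picked with their values known. CPSF2 rose on average by 1.41 times, from 14.7 to 20.7 FPKM (log2 fold change 0.47, limma adjusted p = 0.0139), and after GC correction by 0.26 (adjusted p = 0.0491). The ratio of CPSF3 to CPSF2 averaged 1.37 ± 0.102 in shControl and 1.54 ± 0.0937 in shTRMT6 (SD, n = 3 each), and the groups overlapped (exact permutation p = 0.2). FIP1L1 and PCF11 were the other genes of this list that rose, by 0.40 and 0.29, and CPSF1, the largest subunit of the polyadenylation specificity factor, was the other that fell, by 0.40. After GC correction PCF11 was at 0.14 and no longer passed (adjusted p = 0.247). With a replicate block 5 rose and 4 fell. Without the filter on low values 2 rose, and without shTRMT6 replicate 1 or 2 only 1 did.

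Of 7 Sm ring proteins 2 rose, SNRPD1 and SNRPD2, and 0 fell; their median log2 fold change was 0.146. Of 8 genes of histone transcription and the histone locus body 2 rose and 1 fell (median 0.091). USPL1, a Cajal body protein, rose from 3.07 ± 0.285 to 5.21 ± 0.241 FPKM (SD, n = 3 each; 1.70-fold, log2 fold change 0.61, limma adjusted p = 0.00183). CDK2, the kinase that phosphorylates NPAT, fell from 75.9 ± 2.7 to 57.0 ± 4.15 FPKM (-0.41, adjusted p = 0.00488). Its cyclins CCNE1 and CCNE2, picked with their values known, did not pass. Over the 17 alternatives 1 to 3 genes of this list rose and 1 or 2 fell.

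Of 8 genes of the cap-binding complex and of transcription elongation linked to histone 3′ ends, 2 rose and 2 fell (median log2 fold change -0.144). NCBP1, the large cap-binding subunit, rose by 0.40 (limma adjusted p = 0.013), and its call ended without shTRMT6 replicate 2 (adjusted p = 0.0521). SRRT, also called ARS2, which links the cap-binding complex to histone mRNA processing, fell from 75.8 ± 4.42 to 53.1 ± 3.13 FPKM (SD, n = 3 each; -0.51, adjusted p = 0.00148). With a replicate block 4 fell, and over the 17 alternatives 0 to 2 rose.

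Of 9 genes that bind, modify or degrade SLBP, 2 rose and 1 fell (median log2 fold change -0.11). CCNF, cyclin F, a substrate receptor that targets SLBP for destruction in G2, fell from 20.2 ± 1.7 to 13.0 ± 1.01 FPKM (SD, n = 3 each; 1.56-fold, -0.60, SE 0.11, limma adjusted p = 0.00117). FEM1B, a substrate receptor of another ubiquitin ligase, rose from 3.67 ± 0.48 to 5.76 ± 0.634 FPKM (0.53, adjusted p = 0.00627). With a replicate block 3 genes of this list fell, and after GC correction 1 rose and 2 fell. Over the 17 alternatives 0 to 2 rose, with 0 where a mean of 5 FPKM was required.

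Of 15 genes of histone mRNA decay, the process in which ERI1 acts, 2 rose and 1 fell (median log2 fold change -0.102). LSM1, of the ring that binds the oligouridylated 3′ end, rose from 20.8 ± 1.25 to 28.4 ± 2.09 FPKM (SD, n = 3 each; 0.44, limma adjusted p = 0.00552). LSM6, of the same ring, fell by 0.35 (adjusted p = 0.0435), a call that ended in 7 of 17 alternative analyses, with adjusted p up to 0.191. The number of higher genes in this list was 1 to 3 over the alternatives. The number of lower genes was 0 to 4 over the alternatives, 3 with a replicate block and 4 after GC correction.

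Of 30 S phase genes, given here because histone mRNAs are made in S phase, 20 fell and 1 rose (median log2 fold change -0.39). As shares, 66.7% passed as lower and 3.33% as higher, against 16.1% and 19.3% of all genes tested. GINS1, of the replicative helicase, fell from 18.8 ± 0.284 to 8.76 ± 0.629 FPKM (SD, n = 3 each; -1.02, limma adjusted p = 3.2e-05), and POLD1, a DNA polymerase gene, fell by 0.95 (adjusted p = 9.13e-05). In bulk libraries, fewer cells in S phase and less of an mRNA per cell cannot be told apart. The part of S phase genes in the values of SLBP, CPSF3 or ERI1 was not tested.

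**Figure D4:**
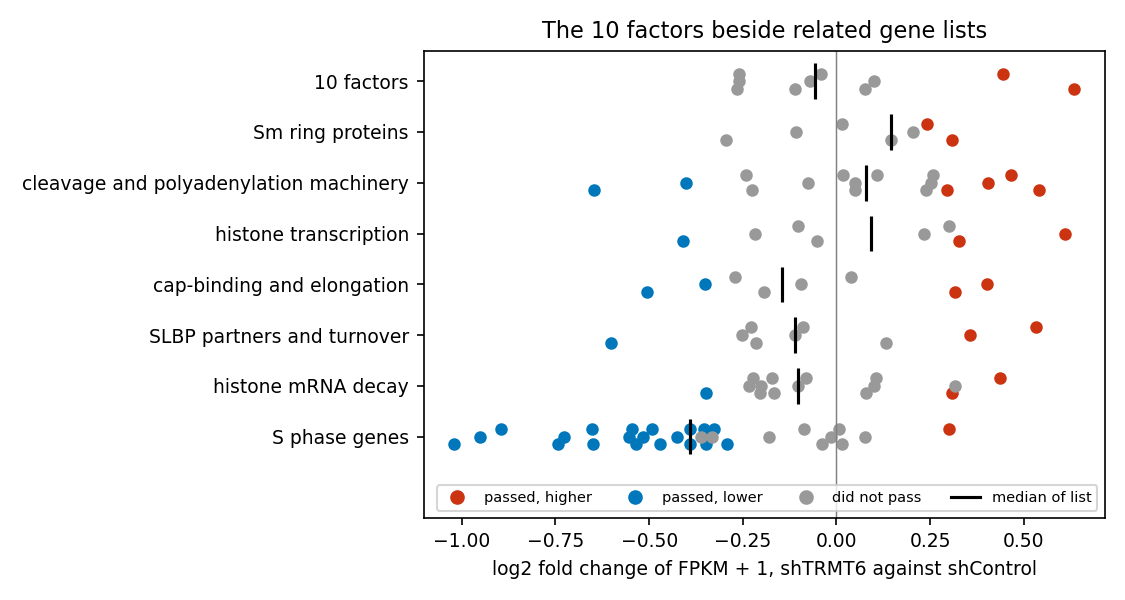
Log2 fold change of FPKM + 1 (shTRMT6 against shControl) for each tested gene of the 10 factors and of the 7 related lists; red and blue points passed the test as higher or lower, grey points did not, and black lines are medians. The factors and the lists of their partners spread to both sides of 0, and 20 of the 30 S phase genes are blue.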

How the data were processed

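The authors deposited 1 table of FPKM values, with 1 column for each library and 1 row for each gene, per the file headers. Tools listed in the submitters' processing notes, without roles, are RSEM, StringTie 1.3.1, HISAT2, fastp 0.18.0 and Bowtie2 2.2.8; the build and annotation are not given in the sources used here. Columns were matched to samples by group and replicate number. The factors and gene lists were chosen with earlier results of these data known. Genes named are the factors, TRMT6, CSTF2T, SNRPD1, SNRPD2 and, from each list, up to 2 genes that passed the test, taken by size of change; others are said to be picked with values known or are neighbours. A table of names gave symbols (20257 of 20289 identifiers), and positions, lengths and GC content from GENCODE release 29.

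The 10592 genes averaging 1 FPKM or more were tested on the log2(FPKM + 1) scale by limma 3.58.1 (R 4.3.3; trended prior, two-sided) and adjusted by Benjamini-Hochberg; the code was tested on simulated data. Count models do not suit FPKM, and fold changes on this scale understate those of low genes. Depth was estimated from 58 to 73 genes per library with a single transcript of 200 to 1000 bases, searched from 12 to 32 M fragments, and is rough. The score of the match, 1 at best, was only 0.177 (shControl replicate 2) to 0.474 (shTRMT6 replicate 1). Fragment counts and counting errors derived from the depth are as rough.

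Libraries with the same replicate number deviated together (correlations 0.206, 0.364 and 0.17, against -0.288 to 0.0936 between numbers). Deviations were taken from the group mean, so those of a group cancel out. Positive correlations within numbers therefore force some negative ones between numbers. No label says what a number marks, and trends across a whole library, such as that on GC content, enter these correlations. Whether the numbers pair the libraries is therefore not settled. The main fit leaves the number out, and a replicate block was among the alternatives. The rest were pseudocounts of 0.5 or 0.1, no filter, a minimum mean of 5 FPKM, quantile or median-of-ratios scaling, other variance priors, removal of the trend of each library on GC content, and each library left out.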

Additional observations from a re-analysis of the deposited data

How the results depend on the processing

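The count of 2 factors higher, and the calls of CPSF3 and ERI1, held in all 17 alternatives. The count of factors lower was 0 in the limma test of all libraries, where 2 had an unadjusted p under 0.05 (SYMPK and CSTF2); no other tool was run. It was 1 when the filter was raised to a mean of 5 FPKM (7 factors tested), under quantile normalization and under median-of-ratios scaling, SYMPK each time. It was 1 with GC correction and 1 with GC correction plus a replicate block, CASP8AP2 both times. It was 2 with a replicate block alone (SYMPK and CSTF2), which changed no other call among the factors and raised the genes past the threshold from 3746 to 4954. With 1 library left out the count ran from 0 to 2, and the genes past the threshold from 2396 to 3619. Median-of-ratios scaling moved the share of calls that were higher from 54.5% to 49.0%. No direction of a called factor reversed. The number of libraries limits the precision, and CASP8AP2, LSM11 and NPAT rest on the fewest fragments.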
